A study of Mus musculus with 9 samples.

Results

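The Slc6a3-high cells described here were single cells of the mouse ventral midbrain, sorted on a VGAT lineage reporter together with a Pitx3 reporter, in which at least 3 molecules of Slc6a3 were counted. Slc6a3 encodes the dopamine transporter. The label proposed for these cells was nigral-like dopamine neurons, and members were chosen by their own measured Slc6a3 counts. Of 575 kept wells on the 2 plates of cells with both reporters, 221 were members: 129 of 304 at E16.5 (42.4%, exact 95% binomial interval 36.8 to 48.2) and 92 of 271 at P0.5 (33.9%, interval 28.3 to 39.9). The other 354 kept wells of the same plates are called Slc6a3-low cells, and the whole series holds 2034 kept wells of 3455.

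All groups share the alleles VGAT-Cre, Ai14 and Pitx3-GFP. Cre is driven by the gene of the vesicular GABA transporter (VGAT, Slc32a1), and the Ai14 allele keeps tdTomato on in every cell that has once made Cre, so tdTomato marks a history of Slc32a1 expression and not its present level. GFP marks cells that express Pitx3, a transcription factor of midbrain dopamine neurons. Cells with tdTomato were sorted onto 4 plates at E16.5 and 3 plates at P0.5 (VGAT plates), and cells with tdTomato and GFP onto 1 plate at each stage (VGAT+Pitx3 plates), from brains of several litters per stage, with the stages written E16 and P0 in the sample labels. Single cells were sorted into wells. The mRNA of each well was counted by SORT-seq, a plate form of CEL-seq2 in which barcodes tell wells and single molecules apart.

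Dopamine neurons of the substantia nigra pars compacta (SNc) make dopamine from tyrosine, load it into vesicles and take it back up at their axon terminals in the dorsal striatum, and they are the neurons most vulnerable in Parkinson disease. They arise from the floor plate of the midbrain together with the dopamine neurons of the ventral tegmental area (VTA). In rodents a high dopamine transporter level together with Sox6 and Aldh1a1 is known for SNc neurons, in particular of the ventral tier, while Otx2, Calb1 and Slc17a6 are known for VTA neurons. Some dopamine neurons also handle GABA.

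The promoters of Slc6a3 and Th are shown because Slc6a3 defined the cells and Th, which encodes tyrosine hydroxylase, the rate-limiting enzyme of dopamine synthesis, had the highest mean correlation with Slc6a3 over the 2 VGAT+Pitx3 plates. Each sequence runs from 250 bases before to 50 bases after the gene start in RefSeq (GRCm38.p6), written 5′ to 3′ on the strand of the gene, with capitals for the matches to the motifs searched. The Slc6a3 promoter lies at chr13:73536497-73536796 on the plus strand and that of Th at chr7:142899946-142900245 on the minus strand.
Slc6a3: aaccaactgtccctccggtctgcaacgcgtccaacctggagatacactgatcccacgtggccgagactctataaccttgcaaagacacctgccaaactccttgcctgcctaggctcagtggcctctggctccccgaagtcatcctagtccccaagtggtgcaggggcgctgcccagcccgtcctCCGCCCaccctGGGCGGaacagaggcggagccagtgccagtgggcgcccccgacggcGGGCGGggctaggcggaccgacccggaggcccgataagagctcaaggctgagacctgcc
Th: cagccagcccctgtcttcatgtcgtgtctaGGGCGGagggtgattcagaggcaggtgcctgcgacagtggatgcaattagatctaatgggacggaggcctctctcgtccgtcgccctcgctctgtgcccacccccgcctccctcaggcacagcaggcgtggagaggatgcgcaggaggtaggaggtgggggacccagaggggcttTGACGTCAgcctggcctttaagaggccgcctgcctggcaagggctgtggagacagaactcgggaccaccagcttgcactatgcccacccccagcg
The motifs searched on both strands were the GC box (GGGCGG), the cyclic AMP response element (CRE, TGACGTCA), the site of monomeric Nr4a2 (NBRE, AAAGGTCA) and the bicoid-type site of Pitx factors (TAATCC). The Slc6a3 promoter held 3 GC boxes, starting at positions -66, -55 and -9 from the gene start, and none of the other letters. The Th promoter held 1 GC box at -220 and 1 CRE at -45. Of 32851 mouse promoters of the same length, 35.7% held a GC box, 1.79% a CRE, 1.51% an NBRE and 7.06% a bicoid-type site. The GC content was 66.0% for Slc6a3 and 64.3% for Th, against a mean of 53.8% over all promoters. These matches describe the letters in these windows and were not compared with any binding data.

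Total counts of the kept wells of a plate were between 1434306 and 5403472, with 4605872 on the E16.5 and 2335152 on the P0.5 VGAT+Pitx3 plate. The well names carry 2 plate labels. The first was used, since it matches the sample titles, and the second gives the other stage for 4 of the 7 VGAT plates (E16 replicates 3 and 4, P0 replicates 1 and 3) but the same stage for both VGAT+Pitx3 plates. The VGAT P0 replicate 1 plate stood apart, with 44 of 384 wells kept at a median of 33236 counts. All plates use the same set of well barcodes, 383 of them shared by the VGAT+Pitx3 plates, so a shared barcode does not mark a shared cell. No source says that replicate plates came from separate animals, so p-values measure the spread between plates, which may be technical.

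On the 7 VGAT plates, none of 1459 kept wells reached 3 Slc6a3 counts, and between 0 and 7 wells per plate had any. Within the members, Slc6a3 counts ran from 3 through a median of 19.0 to 120 at E16.5 and from 3 through a median of 11.0 to 71 at P0.5. The Slc6a3-low cells were mostly at 0 (117 of 175 and 134 of 179), so the counts of the VGAT+Pitx3 plates were spread over a wide upper range with a dense group at and just above 0. Just outside the threshold lay 12 and 9 wells with 2 counts, and just inside it 9 and 6 wells with 3 counts. Wells with 3 to 5 Slc6a3 counts lay between the wells with fewer and those with more in Gad2. Their Gad2 level, for a GABA-synthesizing enzyme, was 471 CPM (the gene's share of all counts, scaled to 1000000) at E16.5 and 364 CPM at P0.5, whereas wells with 2 Slc6a3 counts held 1218 and 1008 CPM and wells with 16 or more held 19.4 and 66.9 CPM. Their Th level of 574 and 856 CPM was above the 229 and 300.1 CPM of wells with 2 counts and below the 1124 and 1145 CPM of wells with 16 or more, but at P0.5 not below the 809.7 CPM of wells with 6 to 15. At P0.5 their Aldh1a1 level of 4422 CPM was above the 439 CPM of wells with 2 counts. It was also above the 2939 CPM of wells with 16 or more, but below the 5105 CPM of wells with 6 to 15. Members were also deeper, with a median of 16701 counts and 5399 genes per well against 12618 and 4722 at E16.5, and 8778 counts and 3828 genes against 7111 and 3341 at P0.5. The part of depth in the choice of members was not tested. At a depth thinned to 4000 counts for every well, 33.4% of E16.5 and 29.3% of P0.5 wells still reached 3 Slc6a3 counts. Mitochondrial shares were alike, at medians of 4.88% and 6.09% in members and 4.62% and 5.87% in Slc6a3-low cells.

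**Figure D1:**
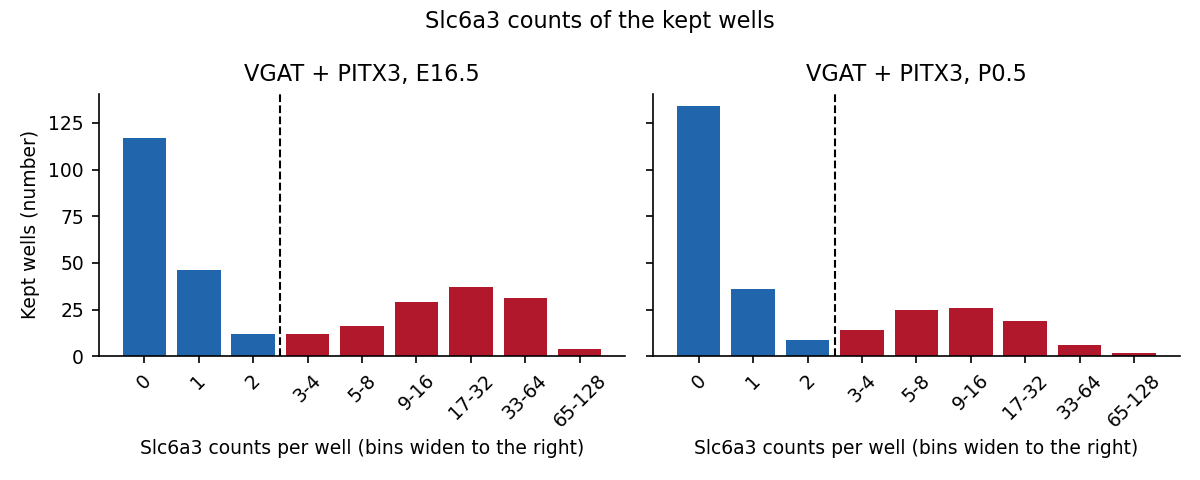
Number of kept wells (vertical axis) by the rounded Slc6a3 count of the well (horizontal axis, in bins that widen to the right) on the VGAT+Pitx3 plates at E16.5 and P0.5, with the threshold of 3 counts marked. The 129 and 92 members form a long upper range up to 120 and 71 counts, beside 117 and 134 wells at 0.

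The other markers given with the label were followed in members. In members, Th stood at 1012 CPM at E16.5 (exact Poisson interval 971 to 1054) and 970.3 CPM at P0.5 (907 to 1037), against 80.8 and 133 CPM in Slc6a3-low cells and 0.185 to 6.25 CPM on the VGAT plates. Th was found in 96.1% and 93.5% of members. Aldh1a1, a retinaldehyde dehydrogenase that also takes part in the breakdown of dopamine aldehydes, was the most abundant marker at 4111 and 3999.7 CPM, against 133 and 219.6 CPM in Slc6a3-low cells and at most 2.23 CPM on a VGAT plate. Slc10a4, a vesicle protein of monoamine and cholinergic neurons, stood at 649.7 and 401 CPM against 70.5 and 85 CPM, with 7.67 to 15.6 CPM on the VGAT plates. The neurotrophin gene Ntf3 was at 73.3 and 106 CPM against 4.73 and 20.7 CPM. Chrnb3, a nicotinic acetylcholine receptor subunit, was at 325 and 354 CPM against 129 and 153 CPM. Etv1, an ETS transcription factor, was at 88.7 and 101 CPM against 40.4 and 33.2 CPM. Summed over all members, these 6 markers were higher than in Slc6a3-low cells on both plates. They were also above the whole range of the VGAT plates. Members are divided further below into Aldh1a1-high and Aldh1a1-low members. Th, Slc10a4, Ntf3 and Chrnb3 were above the Slc6a3-low cells in both groups. In Aldh1a1-low members, Aldh1a1 stood at 171 and 181 CPM, against 133 and 219.6 CPM in Slc6a3-low cells. In Aldh1a1-high members, Etv1 stood at 11.5 and 17 CPM, below the 40.4 and 33.2 CPM of Slc6a3-low cells. Slc6a3, the remaining marker, was fixed by the choice of members. The label and its markers came with earlier results of these data known, so the direction of the other markers is not independent evidence either. The intervals of levels cover counting error only.

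The markers did not vary alike among the members. Th and Slc10a4 were found in most members, with 5 and 6 members at 0 for Th and 4 and 14 for Slc10a4. Ntf3 was at 0 in 67 of 129 and 51 of 92 members, and Etv1 in 90 of 129 and 63 of 92, with single members at up to 37 Etv1 counts. Aldh1a1 ran from 0 to 690 counts per member at E16.5 and from 0 to 309 at P0.5.

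Gene positions are those of GENCODE M21 (GRCm38), not of the Ensembl release 93 that the authors used for mapping. There Slc6a3 (ENSMUSG00000021609) spans chr13:73536747-73578672, Th (ENSMUSG00000000214) chr7:142892752-142931128 and Aldh1a1 (ENSMUSG00000053279) chr19:20492715-20643465. The Th gene start in GENCODE M21 lies upstream of the RefSeq start used for the promoter shown above. Counts cover whole genes, exons and introns together.

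**Figure D2:**
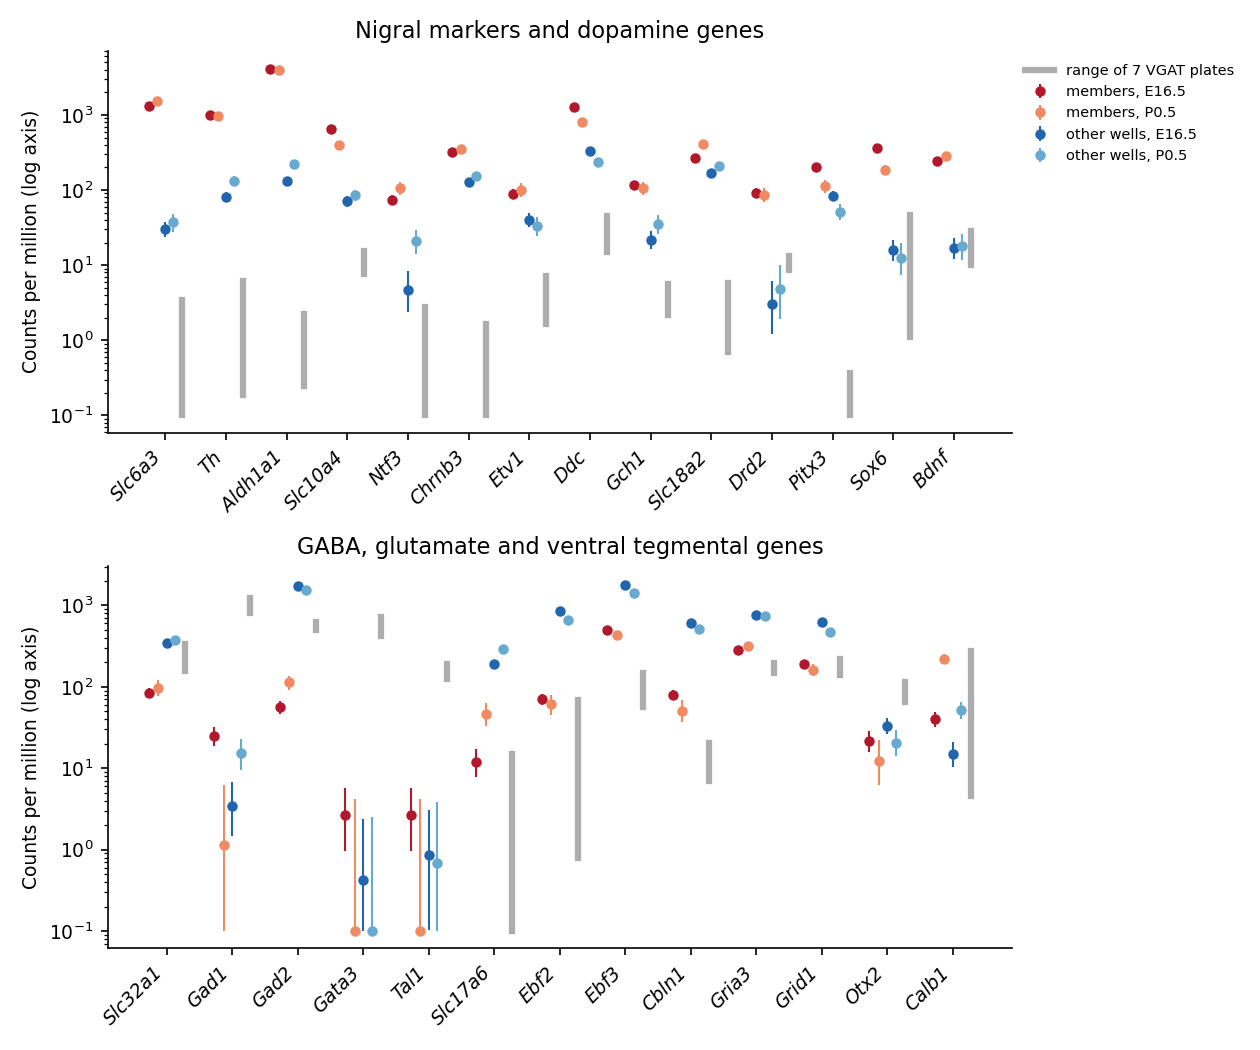
Levels in CPM (log axis, values under 0.1 drawn at 0.1) of the marker genes and other named genes in Slc6a3-high cells (members), Slc6a3-low cells and the VGAT plates, with points and exact Poisson intervals for the summed wells of each plate (other wells are the Slc6a3-low cells) and grey bars for the range over the 7 VGAT plates. Th, Aldh1a1 and Slc10a4 of the Slc6a3-high cells lie above both other groups at both stages.

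Slc6a3-high cells were first compared with the Slc6a3-low cells of their own plate. This is the contrast the threshold made, so it is given by size on each plate, without a test. Among 10375 genes with at least 20 counts on each plate, 177 were at least 2-fold higher in members on both plates (1.71%) and 292 at least 2-fold lower (2.81%). The median log2 ratio over all of these genes was -0.003. After Slc6a3 itself (44.4-fold and 41.1-fold), the highest genes in members were Aldh1a1 (30.9-fold and 18.2-fold), Drd2 (30.8-fold and 17.9-fold), Nwd2 (31.0-fold and 13.6-fold) and Sox6 (23.1-fold and 15-fold). Drd2 encodes the dopamine autoreceptor. It stood at 92.6 and 86.8 CPM in members and at 3.01 and 4.83 CPM in Slc6a3-low cells. Sox6, a transcription factor of SNc neurons, stood at 367 and 187 CPM against 15.9 and 12.4 CPM. Bdnf, which encodes brain-derived neurotrophic factor, stood at 245 and 283 CPM against 16.8 and 18 CPM. The remaining genes of the 12 highest were Tmem255a, Oprk1 (the kappa opioid receptor), Kank4, Col25a1, Slc39a4 (a zinc transporter) and the vesicle protein gene Sv2c, each between 7.83-fold and 26.7-fold on a plate.

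Of the genes that were lower, Gad2 was the most abundant of the 12 named, at 56.2 and 113 CPM in members against 1717 and 1536 CPM in Slc6a3-low cells. Greb1l stood at 5.71 and 32.7 CPM against 255 and 292 CPM, and the synapse organizer Cbln2 at 2.19 and 4.51 CPM against 40.0 and 87.7 CPM. Gas1, Tac1 (substance P), C1ql1, Svep1 and Kctd8 had between 1 and 3 counts over all members of a plate, so no fold is given for them. The others were Ptprq, Sstr2, Gm42772 and Gm45768. Gm42772 lies within Kcnip4 on the same strand, and C1ql1 overlaps Gm26668 on the opposite strand. Whether the counting used strand is not stated, so reads of such pairs cannot be told apart.

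**Figure D3:**
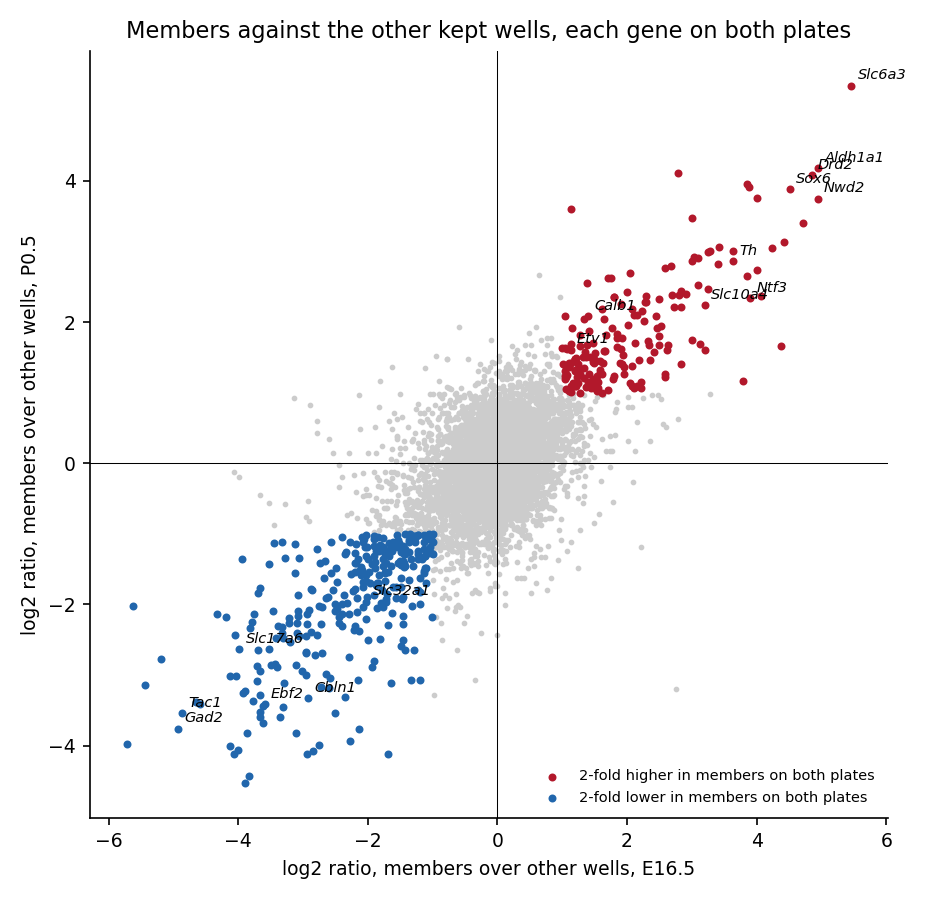
Log2 ratio of Slc6a3-high to Slc6a3-low cells for each of 10375 genes, E16.5 on the horizontal and P0.5 on the vertical axis, each point 1 gene, with lines at 0. Genes 2-fold higher on both plates (177) sit in the upper right and genes 2-fold lower on both (292) in the lower left, with Slc6a3 and Aldh1a1 far to the upper right and Gad2 far to the lower left.

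Of 13 measured genes of dopamine synthesis, storage, uptake and breakdown, 7 were at least 2-fold higher in members on both plates and none lower. Slc6a3, whose difference the threshold made, is 1 of the 7, and the others were Th, Ddc, Gch1, Drd2, Aldh1a1 and Slc10a4. Ddc, which encodes the enzyme that converts L-DOPA to dopamine, stood at 1272 and 811 CPM against 335 and 238 CPM. Gch1, the first enzyme of the synthesis of the cofactor tetrahydrobiopterin, stood at 118 and 105 CPM against 21.9 and 35.2 CPM. Slc18a2, the vesicular monoamine transporter, was at 271 and 409 CPM against 171 and 209 CPM, which is 1.59-fold and 1.95-fold and under the 2-fold limit. The later steps of cofactor synthesis and recycling (Pts, Qdpr) and of breakdown (Maoa, Aldh2) were each within 2-fold on both plates. Slc6a3-low cells also held Ddc and Slc18a2 above the VGAT plates, whose ranges were 15 to 45.2 and 0.697 to 5.85 CPM.

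Among 21 measured transcription factors of the dopamine lineage, 6 were higher (Pitx3, Sox6, Etv1, Zfhx3, Satb1 and Klhl1), 2 lower (Ebf2 and Ebf3), and the others not 2-fold apart on both plates. Pitx3 itself, whose reporter both classes were sorted on, stood at 200.2 and 113 CPM in members and 84.2 and 51.1 CPM in Slc6a3-low cells. Nr4a2, En1, Lmx1a, Lmx1b and Foxa1, factors that specify and maintain midbrain dopamine neurons, were within 2-fold of each other in the 2 classes. For Nr4a2 the levels were 759 and 576 CPM in members and 749 and 445 CPM in Slc6a3-low cells. Ebf2 stood at 70.2 and 60.9 CPM in members against 848 and 653 CPM.

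Of 20 measured genes listed for the SNc, 15 were higher in members and 1 was lower (the growth factor gene Igf1, at 36.0 and 39.4 CPM against 138 and 108 CPM). Lmo3 stood at 692 and 511 CPM against 249 and 189.9 CPM, Serpine2 at 532 and 341 against 242 and 169 CPM, and the GIRK2 potassium channel gene Kcnj6 at 191 and 176 against 74.3 and 82.9 CPM. Of 22 measured genes listed for the VTA, 13 were lower and 1 was higher. The higher one was Calb1, a calcium-binding protein, at 39.9 and 219.8 CPM against 15 and 51.8 CPM. Slc17a6, the vesicular glutamate transporter VGLUT2, stood at 11.9 and 46.2 CPM against 190.3 and 289 CPM, and the receptor tyrosine kinase gene Met at 6.15 and 21.4 CPM against 105 and 118 CPM. Otx2 was low in both classes, at 21.5 and 12.4 CPM in members and 33.1 and 20.7 CPM in Slc6a3-low cells. The SNc list holds all 7 markers given with the cells, and both lists were put together with earlier results of these data known, so their direction is not independent evidence.

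The members' GABA-related genes were followed one by one, since every member had tdTomato. Slc32a1 was found in 69 of 129 members at E16.5 and 36 of 92 at P0.5, and its level of 84.7 and 96.9 CPM was 24.6% and 25.6% of that in Slc6a3-low cells. Gad2 was found in 50 and 36 members, at 3.27% and 7.34% of the level in Slc6a3-low cells. The 2 genes were thus not in the same proportion in the 2 classes. Gad1, the other GABA-synthesizing enzyme, was found in 5 and 1 members. Of its 56 counts in the E16.5 members, 53 came from 2 members, 52 of them from 1. The same 2 members held all 6 Gata3, all 3 Gata2 and all 6 Tal1 counts of the E16.5 members, factors of midbrain GABA neurons, and neither had more than 7 Slc6a3 counts. Slc6a3-low cells also held little Gad1, at 3.44 and 15.2 CPM, while the VGAT plates held 797 to 1217 CPM. Any of Slc32a1, Gad1 and Gad2 was found in 69.8% and 57.6% of members against 98.3% and 96.1% of Slc6a3-low cells. Slc32a1 together with a GABA-synthesizing enzyme was found in 24.8% and 20.7% of members (intervals 17.6 to 33.2 and 12.9 to 30.4) against 88.0% and 77.7%.

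At an equal depth of 4000 counts per well, which left out 2 members and 25 Slc6a3-low cells, Slc32a1 was found in 32.6% and 25.6% of members, 62.4% and 66.7% of Slc6a3-low cells, and 47.8% and 62.1% of cells of the VGAT plates at the 2 stages. Gad2 was found in 15.5% and 25.6% of members, 92.9% and 93.7% of Slc6a3-low cells and 82.8% and 77.1% of VGAT-plate cells. Gad1 was found in 2.33% and 1.11% of members and 95.2% and 91.4% of VGAT-plate cells. Counts of a gene in wells of cells that should lack it bear on these shares. Gata3 was found in 1.55% and 0% of members after thinning, and Sox14 in none, which allows a share of up to 2.33% and 3.33% by the floor of 3 counts (2.82% and 4.02% by the exact interval) of wells with a count at this depth. Aldh1a1, the most abundant marker, was found in 65.1% and 71.1% of members, in 30.6% and 48.4% of Slc6a3-low cells of the same plates and in 0.299% and 0.739% of VGAT-plate cells. The part of molecules from other wells of the plate in the Slc32a1 and Gad2 counts of members was not tested.

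Of 6 measured nicotinic receptor subunits, Chrnb3 and Chrna4 were higher in members and none lower. Chrna4 stood at 292 and 257 CPM against 92.8 and 85.0 CPM. Chrna6, the partner of Chrnb3 in receptors of dopamine terminals, was at 149.7 and 266 CPM against 165 and 203 CPM, so it did not separate the 2 classes. Of 13 measured trophic factors and receptors, 4 were higher (Ntf3, Bdnf and the GDNF family co-receptors Gfra1 and Gfra2) and 2 lower (Igf1 and Ngfr). The GDNF receptor Ret was at 247 and 389.9 CPM against 204 and 316 CPM. Of 23 measured channel genes, Kcnd3 (a subunit of the A-type potassium current, 644 and 525 against 231 and 241 CPM), Kcnj6 and Kcnn3 (a small-conductance calcium-activated potassium channel, 72.4 and 112 against 14.2 and 34.5 CPM) were higher. The T-type calcium channel gene Cacna1i was lower. Of 29 measured axon guidance genes, Epha4 (286 and 142 against 47.3 and 20.7 CPM) and Unc5b were higher and Nrp2 (19.3 and 16.9 against 256 and 147 CPM), Epha3 and Sema3a lower. None of 13 measured Parkinson disease genes was 2-fold apart on both plates.

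Markers of other cell types were summed over their lists. Microglia markers stood at 3.51 and 6.76 CPM with C1qa, C1qb, Csf1r and Aif1 at 0, red blood cell markers at 0.878 and 1.13 CPM with the 4 globin genes at 0, endothelial and pericyte markers at 1.32 and 3.38 CPM with Pdgfrb at 0, serotonin neuron markers at 4.39 and 3.38 CPM, and noradrenaline neuron markers at 0.439 and 0 CPM with Slc6a2 and Phox2a at 0. Oligodendrocyte lineage markers stood at 27.7 and 77.8 CPM, against 80.3 and 75.3 CPM in Slc6a3-low cells. Of the 6 astrocyte markers, the sum of 482 and 461 CPM was nearly all Slc1a2, a glutamate transporter that stood at 481 and 419 CPM against 189 and 102 CPM in Slc6a3-low cells, while Gfap was at 0 and 3.38 CPM and Gja1 at 0 and 4.51 CPM. Radial glia and progenitor markers summed to 319 and 409 CPM in members and 418 and 298 CPM in Slc6a3-low cells, with the proliferation gene Mki67 at 0 in members.

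Across all kept wells of a VGAT+Pitx3 plate with at least 4000 counts (299 at E16.5 and 249 at P0.5, thinned to that depth), Spearman's correlation with Slc6a3 was computed for 6276 genes as a description. The wells share a plate and include both classes, so the values mainly follow the difference between them. The highest mean over the 2 plates was 0.629 for Th, then 0.611 for Zfhx3, 0.605 for Nwd2, 0.593 for Galntl6, 0.583 for Nnat, 0.574 for Tmem255a and 0.572 for Slc10a4, then Dab1, Clstn2 and Klhl13. Differences between neighbours in this order were smaller than the differences between the plates, since Th gave 0.615 and 0.644 and Zfhx3 0.692 and 0.530. The most negative values were -0.728 for Gad2, -0.601 for Cbln1, -0.596 for Ebf3 and -0.567 for Ebf2.

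Aldh1a1 divided the Slc6a3-high cells. At 1000 CPM of Aldh1a1 per well, a level chosen after the values had been seen, 62 of 129 members at E16.5 (48.1%, interval 39.2 to 57.0) and 47 of 92 at P0.5 (51.1%, 40.4 to 61.7) lay at or above it. The median Aldh1a1 level was 7309.7 and 6288 CPM in these Aldh1a1-high members and 84.8 and 148 CPM in the Aldh1a1-low members. Between 500 and 2000 CPM lay 13 and 6 members, and 14 and 10 members had no Aldh1a1 count. Only 4 of 175 and 6 of 179 Slc6a3-low cells reached 1000 CPM, and none of the 1025 and 434 kept VGAT-plate cells did. The groups were close in median depth (16687 against 17215 counts, and 8022 against 9546). The genes that describe both groups were taken from the same wells that were split, so the differences are given by size only.

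Of 11 measured dopamine genes, Aldh1a1 itself was 2-fold higher in Aldh1a1-high members on both plates and none was 2-fold lower on both. Slc6a3 stood at 1293 and 1421 CPM in Aldh1a1-high and 1369 and 1629 CPM in Aldh1a1-low members. Th stood at 1218 and 1099.6 CPM (intervals 1152 to 1287 and 1001 to 1206) in Aldh1a1-high members against 838 and 859 CPM (788 to 891 and 778 to 946). These intervals cover counting error only and not the spread between members, so the difference is given by size. After thinning, Th was found in 93.5% of Aldh1a1-high members at each stage (intervals 84.3 to 98.2 and 82.1 to 98.6). In Aldh1a1-low members it was found in 67.2% and 86.4% (54.6 to 78.2 and 72.6 to 94.8), and the P0.5 intervals overlapped. Gch1 went the other way, at 91.0 and 63.3 CPM against 141 CPM at both stages, and Qdpr stood at 70.9 and 43.8 CPM against 95.6 and 124 CPM. Ddc stood at 1294 and 924 against 1253 and 714 CPM, Slc18a2 at 283 and 418 against 262 and 401 CPM, and Sox6 at 424 and 195 against 318 and 181 CPM. Of 7431 genes with at least 20 counts in members of each plate, 37 were at least 2-fold higher (0.498%) and 85 at least 2-fold lower (1.14%) in Aldh1a1-high members on both plates. The median log2 ratio over all of these genes was -0.02.

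The 12 genes highest in Aldh1a1-high members by ratio included Aldh1a1 itself and, among the more abundant, Lmo3, a LIM-only transcriptional cofactor, at 1181 and 890.4 CPM against 279 and 183 CPM, and the teneurin gene Tenm2, a cell adhesion molecule, at 3993 and 4367 CPM against 1104 and 1086 CPM. The protocadherin gene Pcdh17 stood at 1105 and 1070.4 CPM against 217 and 367 CPM, and the synaptic adhesion gene Lrrtm4 at 1019.5 and 847 CPM against 224 and 206 CPM. Car10 (35.5 and 129 CPM against 2.43 and 18.9 CPM), Gm38048, Tmem132c, Hs6st3, Kank4, Zfp804b and Kcnab1 were the others. Each of these 7 had a larger mean log2 ratio over the 2 plates than Lmo3 and Tenm2. At E16.5 alone, Hs6st3 (3.25-fold) and Tmem132c (3.59-fold) lay below Lmo3 (4.22-fold) and Tenm2 (3.62-fold), and Kank4 (3.74-fold) lay below Lmo3. The astrocyte-listed Slc1a2 was also in this direction, at 739 and 642 CPM against 262 and 227 CPM.

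Lower in Aldh1a1-high members, and so higher in Aldh1a1-low members, were the marker Etv1, at 11.5 and 17 CPM against 154 and 174 CPM, Spon1 (F-spondin), at 10.5 and 38.9 against 156 and 300.2 CPM, and the netrin receptor gene Unc5d, at 27.8 and 60.8 against 244 and 416 CPM. Ptprk stood at 2.87 and 14.6 CPM against 86.7 and 107 CPM, and Tmcc3 at 12.5 and 26.8 against 121 and 151 CPM. Sema5b and Slit3 (guidance cues), Sfrp2, Crhbp, Fst (follistatin) and Cbln1 were also among the 12. Slc32a1 was another of them, at 26.8 and 19.5 CPM in Aldh1a1-high and 134 and 164 CPM in Aldh1a1-low members. After thinning, it was found in 16.1% and 10.9% of Aldh1a1-high members (intervals 8.02 to 27.7 and 3.62 to 23.6) and in 47.8% and 40.9% of Aldh1a1-low members (35.4 to 60.3 and 26.3 to 56.8). The share in Aldh1a1-low members was thus closer to the 47.8% and 62.1% of the VGAT-plate cells. Gad2 followed with a smaller ratio, at 29.7 and 36.5 CPM against 78.6 and 178 CPM. Bdnf (126 and 148 against 346 and 399 CPM), Lmx1a (127 and 99.7 against 313 and 233 CPM) and Calb1 (24.9 and 136 against 52.7 and 292 CPM) were lower in Aldh1a1-high members on both plates too. Of the lists, GABA and glycine genes gave 0 higher and 2 lower of 6, SNc genes 2 (Aldh1a1 and Lmo3) and 1 (Etv1) of 20, VTA genes 0 and 5 of 14, axon guidance genes 2 and 3 of 24, lineage factors 0 and 4 of 20, and nicotinic, channel and Parkinson disease genes none in either direction.

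**Figure D4:**
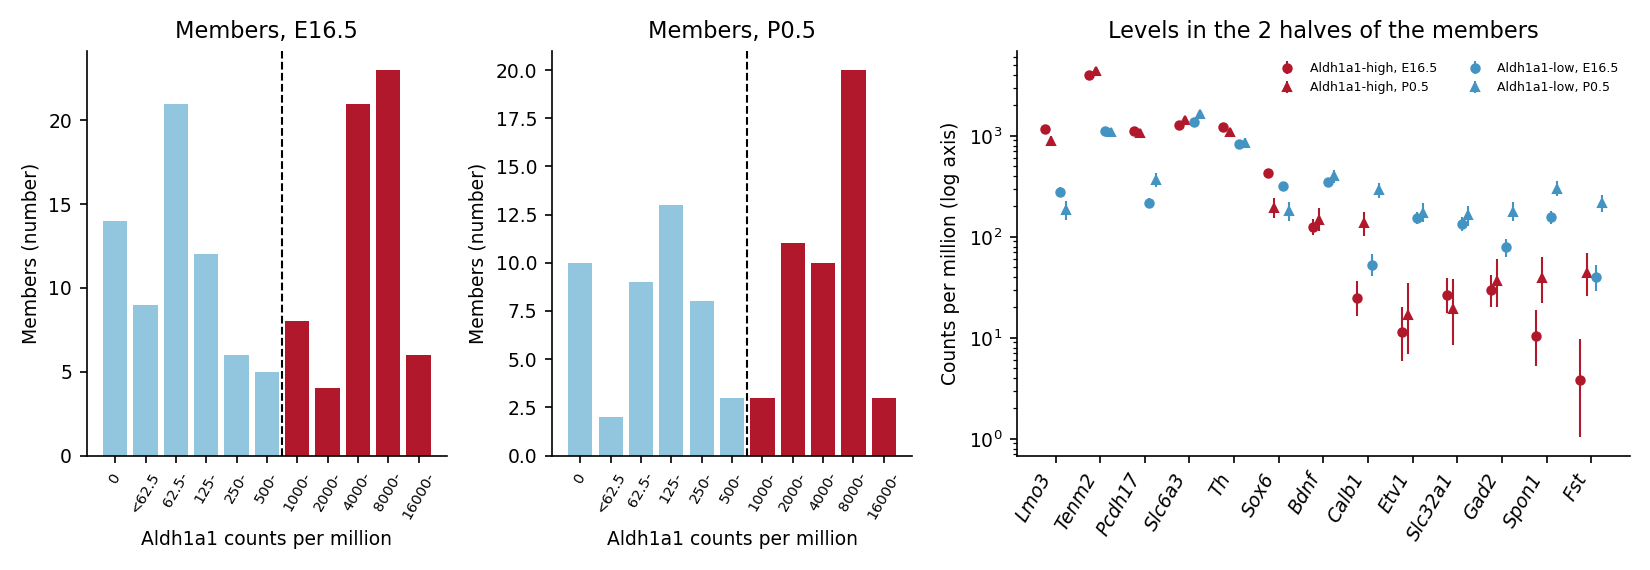
Left, number of members by Aldh1a1 level in CPM with the division at 1000 CPM; right, levels in CPM (log axis) of named genes in Aldh1a1-high and Aldh1a1-low members at each stage with exact Poisson intervals. Lmo3 and Tenm2 are higher in Aldh1a1-high members, and Etv1, Spon1 and Slc32a1 are higher in Aldh1a1-low members.

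The replicated comparison set the members of the 2 VGAT+Pitx3 plates against all kept cells of the 7 VGAT plates, with counts summed per plate and the stage as a covariate. It asks how these Pitx3-GFP cells differed from the wider pool of cells with a VGAT history. Both the GFP sort and the Slc6a3 threshold set the members apart, and sort and plate cannot be told apart. Of 14127 genes tested without Slc6a3, 689 were higher (4.88%) and 790 lower (5.59%) in members at an adjusted p under 0.05 (edgeR quasi-likelihood F test with Benjamini-Hochberg adjustment). Without the E16.5 plate of members the count was 676 in all (378 higher and 298 lower, so that more genes were higher than lower), and without the P0.5 plate 1133 (469 and 664), against 1479 with both, where the lone plate is assumed to vary like the others. In what follows values are log2 fold changes ± standard error over 9 plate sums, with adjusted p-values of this edgeR fit.

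Of the genes tested, Aldh1a1 rose most, by 12.07 ± 0.21 (adjusted p = 1.03e-13), followed by Chrnb3 (10.14 ± 0.26, 8.4e-12) and Th (8.75 ± 0.39, 1.87e-09). Pitx3 was also among the 10 largest, but members were sorted on its reporter and the VGAT plates were not, so its direction was fixed by the sort. Chrna6, C130021I20Rik, Lmx1b, Lmx1a, Gucy2c (guanylate cyclase 2C) and Ntf3 completed the 10 largest, between 6.80 and 8.50. Of the markers, Slc10a4 rose by 5.58 ± 0.19 (1.17e-10) and Etv1 by 4.44 ± 0.25 (2.52e-08). Members were above every VGAT plate in each of these genes. Aldh1a1, Chrnb3, Th, Ntf3, Slc10a4 and Etv1 are the markers given with the label, with earlier results of these data known. Their rise is thus not independent evidence for the label. Other dopamine genes that rose were Slc18a2 (6.61 ± 0.24), Ddc (5.26 ± 0.21), Gch1 (5.23 ± 0.19) and Drd2 (3.18 ± 0.15), so that 7 of 14 genes of the dopamine list rose and none fell. Of 22 lineage factors 16 rose, Pitx3 included, among them Foxa1 (5.68 ± 0.27), Sox6 (4.79 ± 0.57) and Nr4a2 (3.77 ± 0.26), and 1 fell. That factor was Otx2, by -2.36 ± 0.22 (4.23e-06), with 64.6 to 114 CPM on the VGAT plates. Bdnf rose by 4.24 ± 0.19, Ret by 4.09 ± 0.17 and the netrin gene Ntn1 by 5.32 ± 0.34.

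Genes of GABA neurons fell. Slc32a1 fell by 1.29 ± 0.19 on the log2 scale (adjusted p = 2.41e-04), Gad2 by 2.73 ± 0.24 (1.92e-06) and Gad1 by 5.99 ± 0.41 (1.9e-07). In all, 5 of 8 genes of the GABA and glycine list fell and none rose. The fall of Slc32a1 was smaller than that of the 2 synthesizing enzymes, as plate levels show: members had 84.7 and 96.9 CPM against 156 to 333 CPM for Slc32a1, and 24.6 and 1.13 CPM against 797 to 1217 CPM for Gad1. Of the E16.5 values, 53 of 56 Gad1 counts and all Gata3, Gata2 and Tal1 counts came from the 2 members named above. The difference between the 2 falls was not tested. Of 16 selector factors of GABA lineages 13 fell and none rose. Gata3 was at 2.63 and 0 CPM in members against 425 to 713 CPM, Gata2 at 1.32 and 0 CPM against 69.8 to 151 CPM, and Tal1 at 2.63 and 0 CPM against 124 to 188 CPM. Of the genes that fell most, Slc30a3 (a vesicular zinc transporter), Sox14, Lhx5, Gm27199, Emx2, Sox1ot, Dlx1, Dlx6os1 and Gm28928 had no count in any member. Dlx1, Dlx6os1 and Gm28928 lost their call without the E16.5 plate of members (edgeR adjusted p = 0.606, 0.680 and 0.0514). Dlx1 (0.0579) and Dlx6os1 (0.0623) also lost it without the P0.5 plate of members, both without VGAT P0 replicate 2 (0.0510 and 0.0567), and Dlx6os1 without VGAT E16 replicate 1 (0.0520). With the stage taken from the second plate label, Dlx1 and Dlx6os1 lost their calls too (edgeR adjusted p = 0.0952 and 0.130). Dlx6os1 also lost it without wells over 2 times the median depth (0.0536). Against a floor of 3 counts over all members (0.948 CPM), Slc30a3 was at least 114-fold, Sox14 at least 80.2-fold and Lhx5 at least 59.1-fold lower than the mean of the VGAT plates. Gm27199 overlaps Lhx5 on the opposite strand. Meis2, the remaining gene of the 10, was at 1.32 and 0 CPM against 414 to 951 CPM.

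Ebf3 (2.55 ± 0.19) and Cbln1 (2.51 ± 0.27), which were lower in members than in Slc6a3-low cells, rose against the VGAT plates. Of 25 tested VTA genes, 8 rose, among them Cck (cholecystokinin, 4.85 ± 0.59), and 5 fell. Nnat, 2.87-fold and 2.08-fold higher in members than in Slc6a3-low cells, did not pass the test against the VGAT plates (-0.01 ± 0.25, adjusted p = 0.997). The neurotrophin receptor Ntrk3 fell by 1.75 ± 0.18 (9.03e-06), while its ligand gene Ntf3 rose. Of 31 guidance genes 9 rose and 11 fell, with falls of Nrp2 (-2.56 ± 0.24), Nrp1 (-2.18 ± 0.29) and Ephb1 (-2.17 ± 0.20) and a rise of Epha5 (1.23 ± 0.14). Of 24 channel genes 4 rose, Kcnj6 by 2.91 ± 0.22 and Kcnd3 by 2.13 ± 0.11, and 5 fell, Cacna1i by 2.75 ± 0.31. Of 15 Parkinson disease genes 2 rose, among them Dnajc6 (1.07 ± 0.12), and 1 fell.

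Between the stages, members at E16.5 and P0.5 were compared with 1 plate each, so the stage and the plate cannot be told apart. The spread in this fit came from the 7 VGAT plates, and members were assumed to vary like them. None of 15189 genes passed an adjusted p of 0.05 (0%, edgeR quasi-likelihood F test), while 1642 had an unadjusted p under 0.05 and DESeq2 called 54, with 5892 genes given no adjusted p. The test of whether the stage difference of members differed from that of the VGAT plates also called none (0%), with 1357 genes under an unadjusted 0.05 and 52 called by DESeq2, which gave no adjusted p for 12073. A p that misses the threshold does not show that the stages were alike.

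The markers differed between the stages by less than 2-fold. The log2 difference of P0.5 from E16.5 was -0.08 for Th, -0.06 for Aldh1a1, 0.11 for Chrnb3, 0.18 for Etv1, 0.51 for Ntf3 and -0.71 for Slc10a4, with adjusted p-values of 0.4 or more (edgeR). By size, 282 of 7431 genes with at least 20 counts in members of each stage were at least 2-fold higher at P0.5 and 61 at E16.5. The largest at P0.5 were Sparcl1 (19.3 to 119 CPM, adjusted p = 0.295), an extracellular matrix protein, Fst (23.3 to 136 CPM, 0.301), Calb1 (39.9 to 219.8 CPM, 0.557), A930017M01Rik (15.4 to 77.8 CPM, 0.07) and Cpne8 (10.5 to 53 CPM, 0.268). These calls depended on the fit. Without VGAT P0 replicate 2, Sparcl1 and A930017M01Rik passed, both at an adjusted p of 0.0402 (edgeR). Without the filter on low counts, 19 of the 20 genes named for stage passed, all but Dkk2. With DESeq2, 9 passed, namely A930017M01Rik, Cpne8, Ildr2, Tshz2, Calb2, Arl6ip5, Msmo1, 2700081O15Rik and Sqle. Calb1 was found in 35 of 129 members at E16.5 and 54 of 92 at P0.5. On the VGAT plates it ran from 4.52 to 70.7 CPM at E16.5 and from 30.6 to 272 CPM at P0.5, so the plates of 1 stage differed more than the members did. Ildr2, Tshz2, Calb2, Apoe and Dkk2 followed. Apoe, a lipoprotein of glia, ran from 3.59 to 249.6 CPM over the VGAT P0 plates. Beside these, of the astrocyte markers in members Aqp4 stood at 1.32 and 23.7 CPM and Aldh1l1 at 0 and 9.02 CPM, the 6 together at 482 and 461 CPM, and the oligodendrocyte lineage sum went from 27.7 to 77.8 CPM. Their part in the stage differences was not tested. A930017M01Rik overlaps Sybu on the opposite strand, and the 2 cannot be told apart.

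Higher at E16.5 were Arl6ip5 (112 to 24.8 CPM, adjusted p = 0.255), Vcan, which encodes the matrix proteoglycan versican (164 to 50.7 CPM, 0.318), the sterol synthesis genes Msmo1 (173 to 56.3 CPM, 0.295) and Sqle (205 to 78.9 CPM, 0.234), and the cell cycle inhibitor gene Cdkn1c (101 to 37.2 CPM, 0.359). Gm38042, Hs3st1, Adgra3, Dhx29 and 2700081O15Rik were the others. Gm38042 lies within Zfhx3 on the same strand and 2700081O15Rik overlaps Rtn3. Sox11, a factor of immature neurons, went from 979 to 403 CPM in members (-1.30 ± 0.30, adjusted p = 0.238) and from 1100.3 to 1683 CPM on the VGAT E16 plates to 578 to 717 CPM on the VGAT P0 plates. The median over the 14 genes of immature neurons and axon growth was -0.12 and over all genes 0.00.

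**Figure D5:**
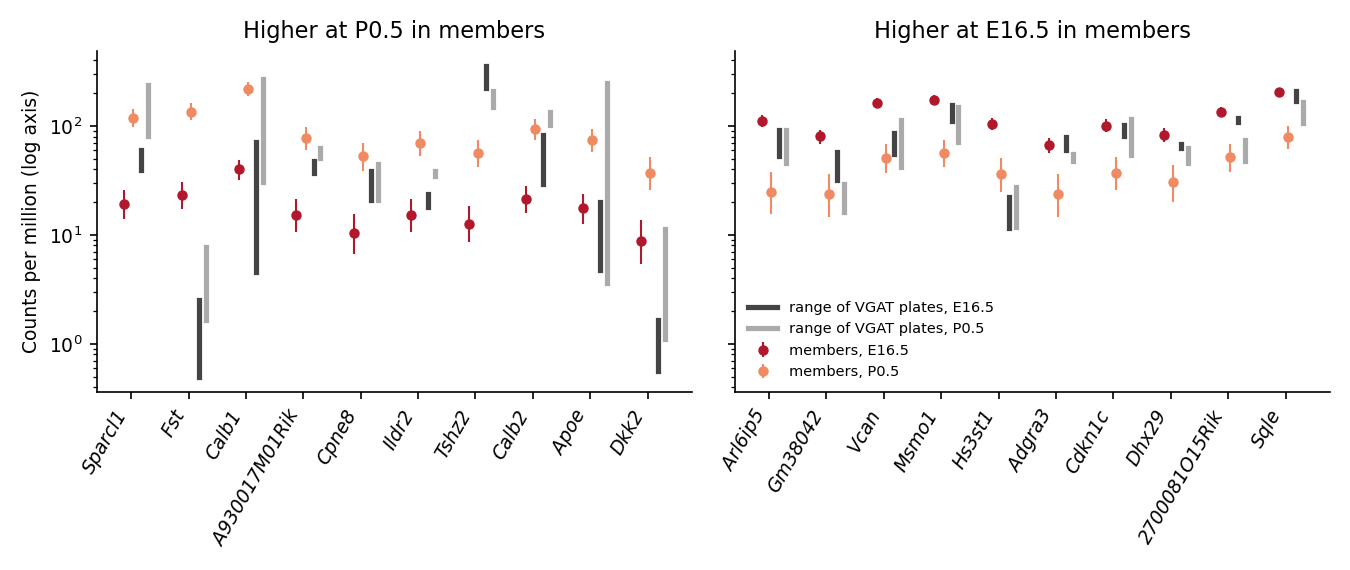
Levels in CPM (log axis) of the 10 genes highest at P0.5 (left) and the 10 highest at E16.5 (right) in members at each stage, with exact Poisson intervals, beside the range over the VGAT plates of the same stage, with a range minimum under 0.5 drawn at 0.5. In the left panel Fst stands at 23.3 and 136 CPM, above its VGAT ranges, and in the right panel Arl6ip5 stands at 112 and 24.8 CPM.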

How the data were processed

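Per the labels and the methods of the study, single cells were processed by SORT-seq and the authors mapped reads with the MapAndGo pipeline and STAR to GRCm38 (mm10, Ensembl release 93). The deposited tables hold expected counts per gene and well, that is distinct molecular barcodes corrected for collisions, with 6 bases as the labels give them and not the length in the methods of the study (100.0% of non-zero values matched that formula within 0.001). They were rounded to whole numbers, and the table of spliced and unspliced molecules together was used. Kept wells had 2000 genes or more, no more than 50000 counts and less than 15% mitochondrial counts, leaving spike-ins aside. Cells were sorted singly, but no doublet caller was run, so wells that received more than 1 cell were not looked for. Levels (CPM) are the summed counts of a gene scaled to a total of 1000000, with exact 95% intervals for counting error only, and a count of 0 was set against a floor of 3 counts. Members and gene lists were chosen with earlier results of these data known. Summed counts per plate were tested with edgeR 4.0.16 (TMM, quasi-likelihood F test, Benjamini-Hochberg, R 4.3.3) at 0.05, and with DESeq2 1.42.0 as an alternative. Scripts used Python 3.11.15 and were tested on simulated data. Named genes were the listed genes, the 12 highest and 12 lowest of those at least 2-fold apart on both plates with at least 20 counts each, the 10 with the largest change each way among those past the threshold against the VGAT plates whose plates did not overlap, the 10 largest stage differences each way, and the 10 most and least like Slc6a3. The genes named in the division of members by Aldh1a1 were chosen after its values were seen. Same-numbered plates did not deviate together (r of 0.039, 0.072 and 0.0533), so numbers were not taken to pair plates. A few listed genes are not reported here.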

Additional observations from a re-analysis of the deposited data

Results flagged for a closer look

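Among 23 named genes tested on the 4 VGAT E16 plates, 3 had a plate far from the other 3, by Dixon's ratio of its gap to the whole range at the 95% level. Dlx1 stood at 138 CPM and Sox1ot at 36.8 CPM on VGAT E16 replicate 2, and Lmx1a at 3.50 CPM on VGAT E16 replicate 1. At that level chance alone gives such a plate in about 1 in 20 groups.

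Wells that failed the minimum of 2000 genes were not used in any comparison. Of these, 4 of 78 on the E16.5 and 7 of 112 on the P0.5 plate of cells with both reporters had at least 3 Slc6a3 counts, against 0 of 1188 such wells on the VGAT plates.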

How the results depend on the processing

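The share of kept wells that were members was 61.5% at E16.5 and 50.6% at P0.5 with 1 Slc6a3 count as the limit. After thinning to 4000 counts it was 33.4% and 29.3% with 3 counts, and 50.8% and 44.2% with 1 count. Against the VGAT plates, 1479 genes passed, and leaving out a plate gave 676 to 1545. The count was 676 without the E16.5 plate of members. DESeq2 called 1550 genes, 1424 of them shared. Dlx1, Dlx6os1 and Gm28928 lost their call in some alternatives. Between stages no gene passed, but DESeq2 called 54, the fit without a filter on low counts 162, the fit without wells over 2 times the median depth 1, and leaving out a plate 0 to 3, with 3 without VGAT P0 replicate 2. For the interaction these were 52, 113 and 1. With a replicate block 1013 genes passed against the VGAT plates (956 shared) and none between stages or in the interaction. The numbers do not pair the plates, although each P0 plate correlated best with the E16 plate of its own number, which did not hold for E16 replicate 1. Asking for a 2-fold difference on the E16.5 plate without the other gave 474 genes higher and 809 lower in members of 11821, and on the P0.5 plate 369 and 552 of 10487, against 177 and 292 of 10375 on both, and after thinning 124 were higher and 187 lower of 7630 genes. For the Aldh1a1 division, 37 genes higher became 24 after thinning, 18 with a minimum of 50 counts, and 209 with the E16.5 plate without the other and 249 with the P0.5 plate. The 85 lower became 36, 45, 328 and 340. The cause was not tested. No single gene or value changed direction in the alternatives run, but without the E16.5 plate of members more genes were higher (378) than lower (298) against the VGAT plates. The alternatives of the Aldh1a1 division, the second plate label (1201 genes) and the fit without members holding GABA selector counts (1482 genes) were chosen after seeing the data. Shares of wells with a gene depend on depth, and 54 of 72 moved without thinning, at 8000 counts or with a limit of 2 counts. On the VGAT+Pitx3 plates, P0.5 wells were the shallower.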
